A study of Mus musculus with 22 samples.

Results

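The genes described here build the actin cytoskeleton and the focal adhesions that tie it to the matrix outside the cell. They were taken from a list of 37 named mouse genes. Each is represented by the probe annotated to it alone with the highest mean signal over all 22 samples, array control probes left out. Of the 37, 33 were measured, among 12393 genes in all. Myh10, Rock2, Tln2 and Ptk2 had no probe annotated to a single gene and were not analysed here. The tissue was loose subcutaneous connective tissue of the trunk. The mice were C57BL/6 males with a weight of 19 to 24 g, and the labels do not give their ages. Each of 11 animals gave a stretched and a shortened sample, and which tissue was stretched was decided at random. In 7 animals tissue was stretched or shortened in vivo, and in 4 animals ex vivo, so there were 4 groups of 7, 7, 4 and 4 samples. The stretch is described as static, its duration and force are not given in the sources used here, and no sample was neither stretched nor shortened. Values are log2 signals from arrays, errors are standard errors (SE) of the fit unless marked SD, and p-values were adjusted over all 22626 probes with a threshold of 0.05.

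Actin filaments grow from monomers that profilin delivers and that thymosins hold in reserve, and cofilin with its helpers takes old filaments apart. At a focal adhesion, talin and kindlin activate integrins, vinculin, paxillin and zyxin join the plaque as it is loaded, and the kinase-like protein ILK with its partners PINCH and parvin links integrins to actin. When monomeric actin is used up, its cofactor MRTF is released to the nucleus and works with SRF, which binds a promoter element called the CArG box and drives many of the genes in this set, so actin genes and force on the cell are coupled in fibroblasts, the main resident cells of this tissue.

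CArG boxes stood within 250 bases before to 50 bases after the start sites of 5 of the 29 genes of the list with a promoter in the RefSeq table (GRCm38.p6), which is 17.2%, against 1.81% of all 27025 genes. The search took the consensus CArG box with no mismatch on both strands. The matches are printed 5′ to 3′ on the gene's strand with the box in capitals and up to 40 bases on each side. Only this window was searched, so the matches do not set apart the members that SRF acts on from the others. They are shown for the gamma actin gene Actg1 at chr11:120348536-120348625 (minus strand), kindlin-2 gene Fermt2 at chr14:45530220-45530309 (minus), and Fhl2, a LIM protein of the SRF pathway, at chr1:43163962-43164032 and chr1:43196808-43196897 (both minus). The other two are Srf itself at chr17:46556175-46556284 (minus, 2 boxes) and the vinculin gene Vcl at chr14:20929148-20929220 (plus strand).
Actg1: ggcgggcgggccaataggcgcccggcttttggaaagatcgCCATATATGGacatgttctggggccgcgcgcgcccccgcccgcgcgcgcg
Fermt2: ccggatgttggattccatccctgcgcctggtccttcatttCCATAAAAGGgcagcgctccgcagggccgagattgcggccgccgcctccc
Fhl2 (first window): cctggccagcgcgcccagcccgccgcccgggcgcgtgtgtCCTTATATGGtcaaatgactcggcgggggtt
Fhl2 (second window): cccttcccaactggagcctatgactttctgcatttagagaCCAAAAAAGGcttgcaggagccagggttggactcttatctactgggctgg
Srf: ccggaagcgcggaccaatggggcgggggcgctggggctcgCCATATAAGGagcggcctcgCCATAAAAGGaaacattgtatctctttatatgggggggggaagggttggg
Vcl: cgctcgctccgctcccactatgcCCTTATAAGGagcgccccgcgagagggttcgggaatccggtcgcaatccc
The boxes of Actg1, Srf and Vcl began 90, 82 and 227 bases before the start site, and that of Fermt2 204 bases before it. A match describes these letters only; whether SRF occupies them in this tissue was not measured.

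The tissue label was checked against marker genes. The mean of 13 fibroblast markers lay between 12.5 and 12.8 in shortened tissue in vivo and between 10.9 and 11.3 ex vivo. Relative to the median of all probes, 11 of the 13 passed as lower ex vivo and 1, Pdgfra, as higher, with a list median of -1.10. The group means of Dcn and Pdgfra lay between 13.6 and 14.1 and between 11.75 and 12.02. Those of Col1a1 were 13.03 and 12.91 in shortened and stretched tissue in vivo and 11.38 and 11.04 ex vivo. The mean of 24 skeletal muscle markers differed widely between the samples of an animal. Stretched minus shortened, it was -0.11, 0.74, 1.62, -0.29, 4.89, 3.08 and 1.69 in in vivo animals 1 to 7 and -0.31, 0.10, 4.12 and 4.66 in ex vivo animals 1 to 4. Acta1, the skeletal muscle actin, averaged 9.07 ± 3.29 (SD, n = 7) in the shortened samples in vivo and 11.3 ± 3.10 (SD, n = 7) in their stretched partners. In whole tissue, fewer cells of a type and less RNA per cell cannot be told apart. The gap between the 3′ and 5′ control probes of Gapdh, a sign of RNA degradation, was 0.111 to 0.272 in in vivo animals 1 to 3, 0.866 to 3.61 in in vivo animals 4 to 7 and 0.0497 to 0.912 ex vivo. Median signals were 7.29 to 7.42 in vivo and 6.85 to 6.90 ex vivo.

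In vivo, stretched tissue was compared with shortened tissue of the same animal. The 33 genes lay close to 0, between -0.24 and 0.25, and 24 of them were lower and 9 higher in stretched tissue, with a median of -0.04 against -0.01 over all genes. None passed the threshold, as was the case for 0% of all genes. At an unadjusted p under 0.05, 7 members were lower and 1 was higher, against 12.7% and 9.05% of all genes. The smallest adjusted p of any probe was 0.153 and 4373 of 22626 probes had an unadjusted p under 0.05.

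Of the 7 members that were lower at an unadjusted p under 0.05, 3 were plaque genes, 2 turnover genes, 1 an assembly gene and 1 of the ILK group. The 4 measured plaque genes are described first. Zyxin (Zyx), which moves to adhesions and stress fibres under load, had the most negative mean difference of any member. Its signal in shortened tissue ran from 11.15 to 12.10 with a median of 11.50, and in stretched tissue from 11.01 to 11.64 with a median of 11.33. The groups overlapped, and the sample was lower after stretch in 5 of 7 animals, by -0.46, -0.51 and -0.49 in animals 2 to 4. The mean difference was -0.24 ± 0.09 (SE, n = 7; limma adjusted p = 0.189).

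Paxillin (Pxn), a scaffold that recruits kinases to the plaque, ran from 11.76 to 12.28 (median 11.96) in shortened and from 11.51 to 12.19 (median 11.73) in stretched tissue. It was lower in 6 of 7 animals, with a difference of -0.19 ± 0.06 (adjusted p = 0.172), and its other probes gave -0.21 and -0.44. Talin 1 (Tln1), which joins integrin tails to actin, was lower in 6 of 7 animals by a mean of -0.17 ± 0.07 (adjusted p = 0.21), the exception being animal 7 with 0.22. The Gapdh gap of that animal differed between its samples by -2.10, the largest size of any pair. The part of this gap in the Tln1 value was not tested beyond a fit with it as a covariate, which brought no call. The dimmer second probe of Tln1 gave -0.01 ± 0.07, with 3 of 7 animals higher. Without animal 7 the Tln1 difference was -0.24, and in in vivo animals 4 to 7 alone it was -0.08, against -0.30 in animals 1 to 3. Vinculin (Vcl), which reinforces the talin to actin link, stood apart from the other plaque genes at 0.11 ± 0.08 (adjusted p = 0.462), with higher signal in 5 of 7 animals. Plaque genes therefore did not all lie on the same side.

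All 4 genes of the ILK, PINCH, parvin and kindlin group had negative means in vivo. Alpha-parvin (Parva) ran from 9.82 to 10.45 (median 10.13) in shortened and from 9.64 to 10.23 (median 9.94) in stretched tissue. It was lower in 6 of 7 animals, at -0.15 ± 0.05 (adjusted p = 0.195), although its dimmer second probe gave 0.06 ± 0.07. Ilk was lower in 6 of 7 animals at -0.08 ± 0.04 (adjusted p = 0.273). Lims1, which encodes PINCH1, was the single member lower in all 7 animals, a pattern seen in 4.28% of all genes. Its differences ran from -0.15 to -0.02 with a mean of -0.08 ± 0.04 (adjusted p = 0.275). Fermt2 was nearest to 0 in this group, at -0.01 ± 0.04.

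Among the 10 genes of actin monomers and filament turnover, signs were mixed in vivo. Cofilin 1 (Cfl1), the general filament-severing factor, was lower in 6 of 7 animals. Its signal was 12.42 to 12.67 (median 12.50) in shortened and 12.25 to 12.60 (median 12.47) in stretched tissue, a difference of -0.10 ± 0.04 (adjusted p = 0.227). Cofilin 2 (Cfl2), the form that predominates in muscle, was the one member with an unadjusted p under 0.05 in the higher direction. It ran from 10.43 to 10.79 (median 10.67) in shortened and from 10.29 to 11.26 (median 10.75) in stretched tissue and was higher in 6 of 7 animals, at 0.20 ± 0.08 (adjusted p = 0.214). Tmsb10, a thymosin that holds actin monomers, was at -0.08 ± 0.03 (adjusted p = 0.23), and profilin 1 (Pfn1) lay within -0.30 to 0.33 in single animals. Profilin 2 (Pfn2) was at 0.18 ± 0.09 (adjusted p = 0.309), carried by animals 3 and 5 with 0.57 and 0.59. Beta actin (Actb) was at -0.03 ± 0.08 (adjusted p = 0.874), with 5 animals lower and animals 1 and 7 higher. Its dimmer second probe gave 0.25 ± 0.14, with 5 of 7 animals higher.

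**Figure D1:**
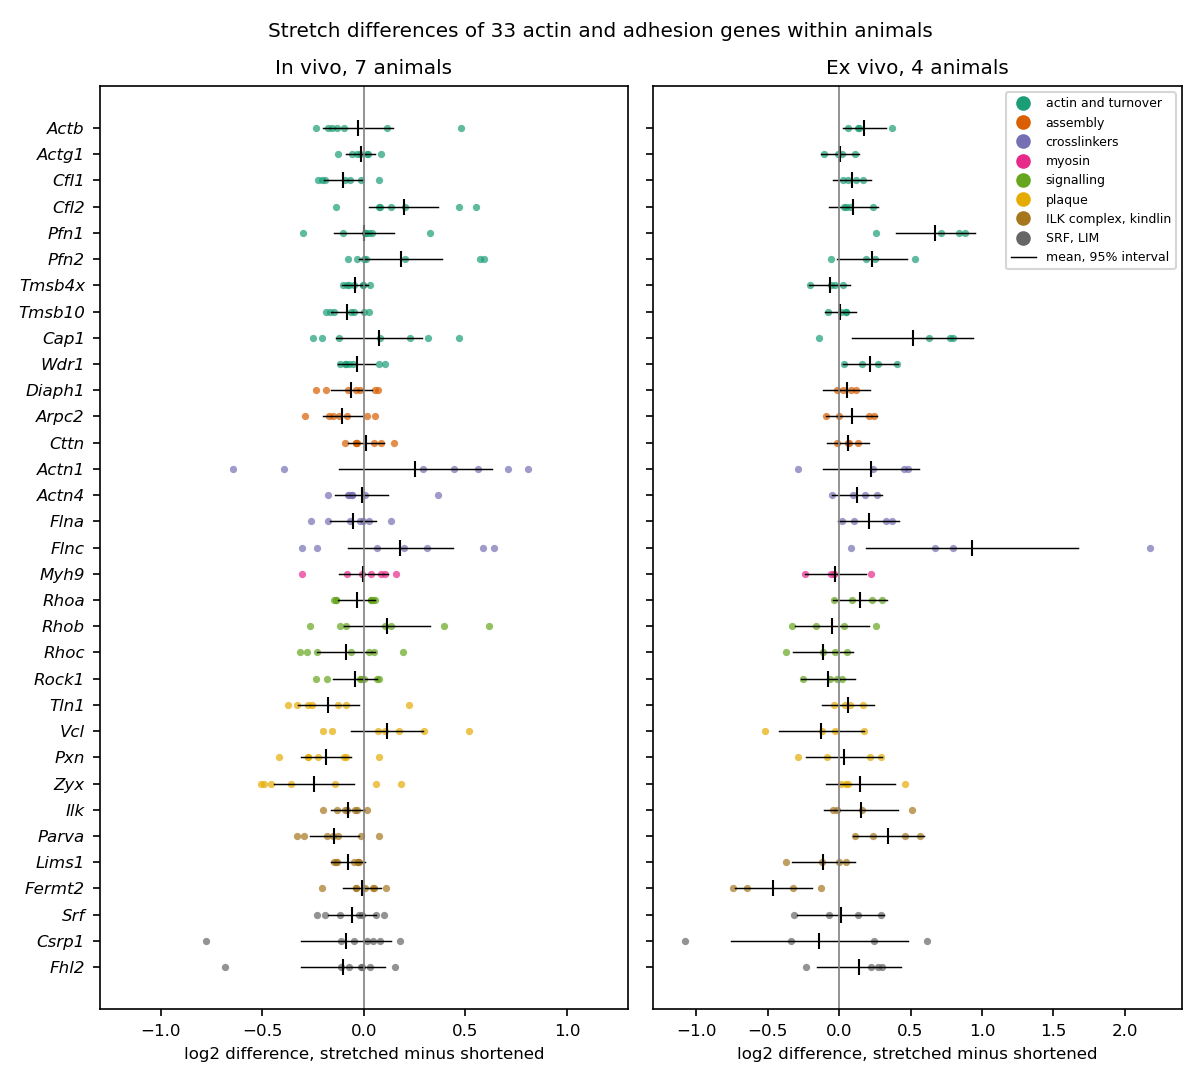
Stretched minus shortened log2 difference (horizontal axes) for each of the 33 genes (rows) in 7 in vivo animals (left) and 4 ex vivo animals (right), with the horizontal scales differing between panels; each point is an animal, colour gives the role, and the black tick and line give the fitted mean and its 95% interval. In vivo means lie within -0.24 to 0.25, while ex vivo Pfn1 and Flnc lie at 0.67 and 0.93 and Fermt2 at -0.46.

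Filament assembly and crosslinking genes completed the in vivo picture. Arpc2, a core subunit of the branching Arp2/3 complex, was lower in 5 of 7 animals at -0.11 ± 0.04 (adjusted p = 0.22). Filamin A (Flna), the ubiquitous crosslinker, was at -0.05 ± 0.05 (adjusted p = 0.614). Filamin C (Flnc), its form in striated muscle, was at 0.18 ± 0.12 (adjusted p = 0.423) with differences from -0.30 to 0.64. Alpha-actinin 1 (Actn1) spread more than any other member, from -0.64 in animal 7 to 0.81 in animal 3, for a mean of 0.25 ± 0.17. Srf was at -0.06 ± 0.05 (adjusted p = 0.586) and was lower in 5 of 7 animals. The remaining members had means between -0.10 and 0.11.

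The plot of gene against muscle marker differences sets Flnc, Cfl2, Pfn2 and Pfn1 beside the muscle content of the same samples. In vivo animal 5, with the largest muscle difference of 4.89, had 0.59 for both Flnc and Pfn2 and 0.47 for Cfl2. Animal 6, next in muscle difference at 3.08, had 0.06, 0.20 and 0.07 for Flnc, Pfn2 and Cfl2. The highest Flnc value in vivo, 0.64, was in animal 7 with a muscle difference of 1.69, and the highest Cfl2 value, 0.55, in animal 3 with 1.62. With muscle content as a covariate the in vivo estimates were -0.02 for Flnc, -0.01 for Pfn2 and 0.09 for Cfl2, none past the threshold. The same covariate left Pxn at -0.19, Zyx at -0.29 and Tln1 at -0.25, with larger standard errors and adjusted p-values of 0.782. In vivo animals 1 to 7 had muscle differences of -0.11, 0.74, 1.62, -0.29, 4.89, 3.08 and 1.69. Their Zyx differences were -0.14, -0.46, -0.51, -0.49, -0.36, 0.06 and 0.18. Their Tln1 differences were -0.28, -0.26, -0.38, -0.33, -0.12, -0.09 and 0.22. The part of muscle in these values was not tested beyond this covariate.

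**Figure D2:**
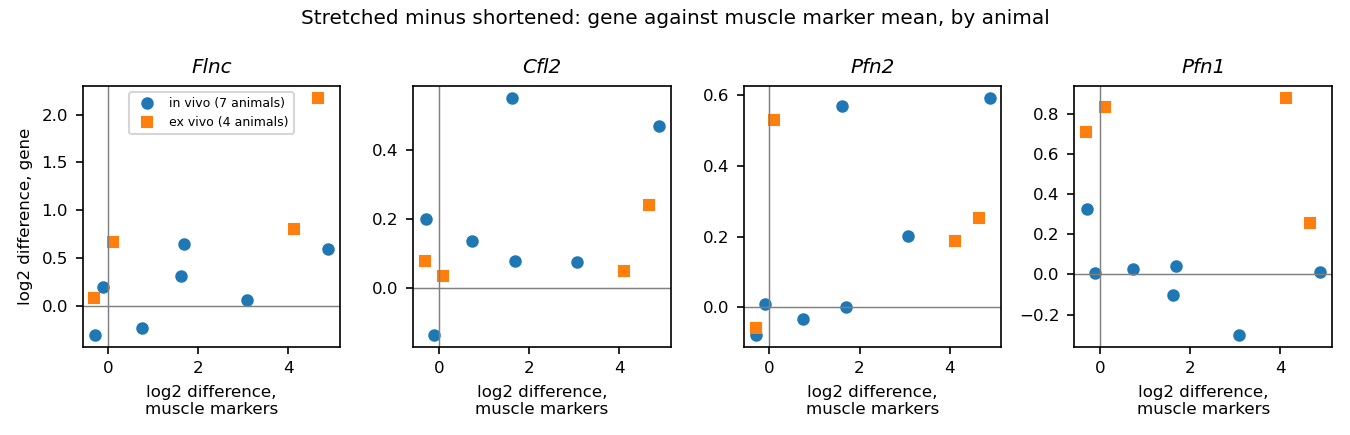
Stretched minus shortened log2 difference of Flnc, Cfl2, Pfn2 and Pfn1 (vertical axes) against that of the mean of 24 skeletal muscle markers (horizontal axes), for 7 in vivo animals (circles) and 4 ex vivo animals (squares). Flnc is highest, at 2.17, in ex vivo animal 4, where the muscle difference is 4.66. Pfn1 is 0.71, 0.84, 0.88 and 0.26 in ex vivo animals 1 to 4, where the muscle differences are -0.31, 0.10, 4.12 and 4.66.

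Ex vivo, the same comparison was made in 4 animals. Here 24 of the 33 genes were higher and 9 lower in stretched tissue, with a median of 0.09 against 0.01 over all genes. None passed the threshold, and neither did any of the other genes (0% of 12393), the smallest adjusted p of a probe being 0.352 and 2508 probes having an unadjusted p under 0.05. At an unadjusted p under 0.05, 6 members were higher and 1 lower, against 5.90% and 5.87% of all genes. In all 4 animals 9 members were higher and 1 lower, patterns that 12% and 8.99% of all genes showed. On simulated data of this design the fit recovered 29% of changes of 0.5 and 74% of changes of 1 on the log2 scale, against 75% and 99% for the in vivo design. The simulated noise was drawn apart for each probe, without variation shared between probes such as that of muscle content. These shares therefore do not tell what the fits could detect in the real samples. In the real in vivo fit, 24 muscle markers with a median difference of 2.03 gave 0 calls.

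Profilin 1 had the smallest p-value of the members ex vivo, though not the largest difference, which was that of Flnc. Pfn1 read 10.67, 10.08, 10.24 and 10.31 in the shortened samples of animals 1 to 4 and 11.38, 10.92, 11.12 and 10.56 in their stretched samples. All 4 animals were higher after stretch, by 0.71, 0.84, 0.88 and 0.26, and only the stretched sample of animal 4 fell within the range of the shortened group. The mean difference was 0.67 ± 0.12 (SE, n = 4; unadjusted p = 0.000802, limma adjusted p = 0.352). The muscle marker differences of animals 1 to 4 were -0.31, 0.10, 4.12 and 4.66. Their Gapdh gaps differed by 0.77, 0.08, 0.02 and -0.09, stretched minus shortened. The part of either in the Pfn1 values was not tested beyond a muscle covariate.

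Other genes of monomer supply and filament turnover were also higher. Cap1, a cyclase-associated protein that recycles monomers, read 6.26, 5.95, 6.46 and 6.80 in shortened and 6.89, 6.73, 7.26 and 6.66 in stretched tissue. It was higher in animals 1 to 3 and lower in animal 4, at 0.52 ± 0.18 (adjusted p = 0.399). Wdr1, the cofilin cofactor also called AIP1, was higher in 4 of 4 animals at 0.22 ± 0.08 (adjusted p = 0.418), though 1 of its other probes gave -0.21. Cfl1 was higher in 4 of 4 animals on both of its probes, at 0.09 ± 0.06 (adjusted p = 0.583) on the brighter probe and 0.31 ± 0.08 on the dimmer. Actb read 13.43, 13.48, 13.25 and 13.51 in shortened and 13.56, 13.54, 13.62 and 13.65 in stretched tissue. These Actb groups did not overlap, at 0.18 ± 0.06 (adjusted p = 0.411). The dimmer second probe of Actb gave 0.04 ± 0.26, with 2 of 4 animals higher. The Actb 3′ control probe, left out of the fit, gave 0.19, 0.04, 0.41 and 0.09 in the same animals. Actg1 stayed within -0.10 to 0.11, and Cfl2 was at 0.10 ± 0.07 (adjusted p = 0.647).

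All 4 crosslinkers had positive means ex vivo. Flnc read 7.12, 6.66, 6.78 and 6.90 in shortened and 7.21, 7.33, 7.58 and 9.07 in stretched tissue, so the groups did not overlap. Its mean was 0.93 ± 0.31 (adjusted p = 0.394), but animal 4 alone contributed 2.17, and without it the value was 0.52. With muscle content as a covariate the Flnc estimate was 0.36 ± 0.30. Flna read 10.11, 10.11, 9.97 and 9.96 in shortened and 10.13, 10.22, 10.34 and 10.29 in stretched tissue, at 0.21 ± 0.09 (adjusted p = 0.461). Its differences were larger in animals 3 and 4 (0.37 and 0.33), whose stretched samples held more muscle marker signal, than in animals 1 and 2 (0.02 and 0.11), and with the covariate the estimate was 0.07. The part of muscle in the crosslinker values was not tested beyond this covariate. Actn4 was at 0.12 ± 0.07 (adjusted p = 0.575), and Rhoa at 0.15 ± 0.08 (adjusted p = 0.543).

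The integrin-linked genes split ex vivo. Kindlin-2 (Fermt2) read 11.47, 11.74, 11.90 and 11.65 in shortened and 11.15, 11.10, 11.16 and 11.52 in stretched tissue. It was lower in 4 of 4 animals, by -0.32, -0.64, -0.74 and -0.13, and its second probe was lower in all 4 as well, at -0.68 ± 0.15. The mean of the brighter probe was -0.46 ± 0.11 (adjusted p = 0.363), the one member with an unadjusted p under 0.05 in the lower direction. Parva went the other way, reading 9.34, 8.58, 8.90 and 8.81 in shortened and 9.45, 9.15, 9.36 and 9.04 in stretched tissue. It was higher in 4 of 4 animals at 0.34 ± 0.10 (adjusted p = 0.383), and its second probe gave 0.22 ± 0.14. With muscle content as a covariate, Pfn1, Fermt2 and Parva were at 0.78, -0.49 and 0.34. Vcl, at -0.12 ± 0.12 (adjusted p = 0.747), rested on animal 2 with -0.52, and without that animal it was 0.01. Srf was at 0.01 ± 0.13 (adjusted p = 0.984), with 2 animals higher and 2 lower.

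**Figure D3:**
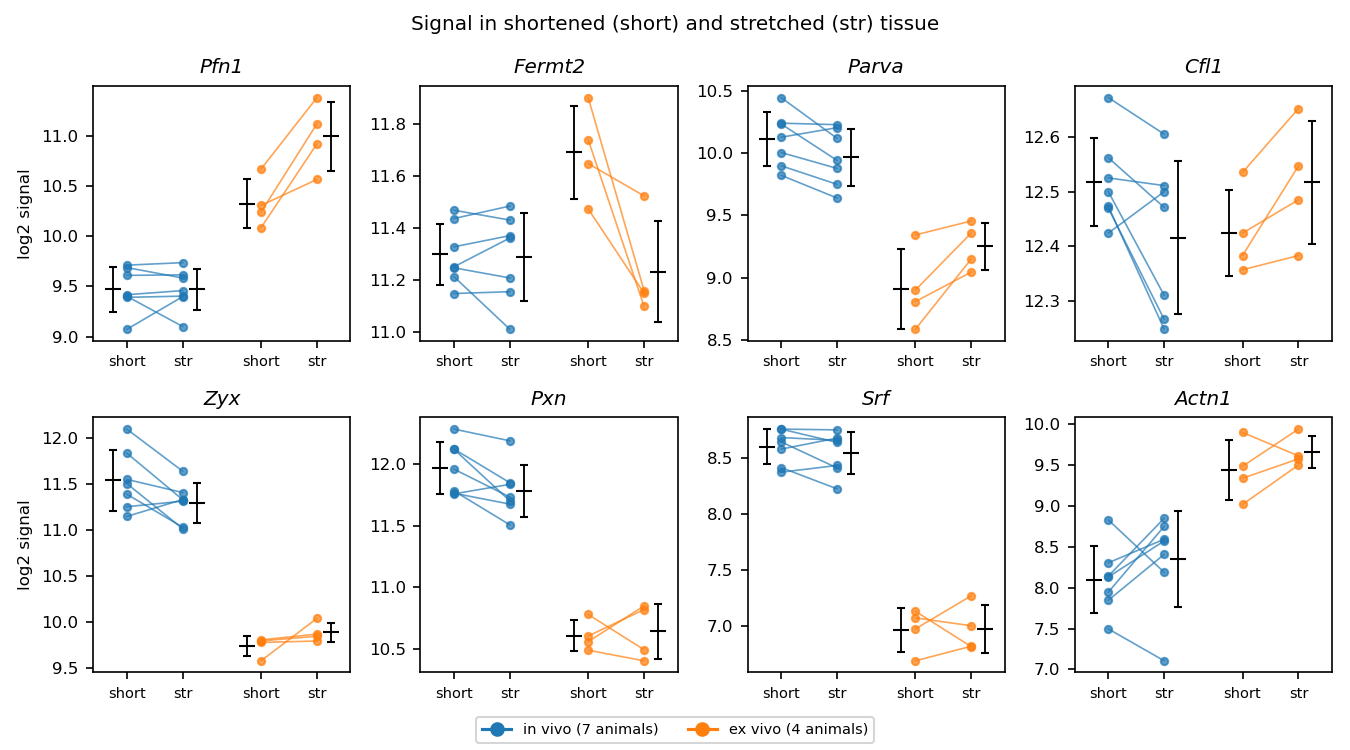
Log2 signal (vertical axes, not starting at 0) of 8 genes in shortened (short) and stretched (str) samples, with a line joining the samples of an animal, in vivo (blue, 7 animals) and ex vivo (orange, 4 animals); black bars give the mean and SD of each group. Pfn1 and Parva are higher and Fermt2 lower in all 4 stretched ex vivo samples than in their partners, while in vivo Zyx is lower in 5 and Pxn in 6 of 7 animals.

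The design also allows a direct test of whether the stretch difference was the same ex vivo and in vivo. Over all genes 24 passed this test, or 0.194%, and no member was among them, while 12 members had a more positive and 1 a more negative stretch difference ex vivo at an unadjusted p under 0.05, against 9.68% and 6.98% of all genes. The calls over all 22626 probes rested on single animals, being 40 with every animal, 0 without in vivo animal 2 and 663 without ex vivo animal 1. Pfn1 came nearest, with a stretch difference 0.67 ± 0.13 larger ex vivo (SE, n = 7 and 4; adjusted p = 0.0592). Parva followed at 0.49 ± 0.10 (adjusted p = 0.0752), its mean being -0.15 in vivo and 0.34 ex vivo. The dimmer second probe of Parva gave 0.16 ± 0.15 (adjusted p = 0.663). Fermt2 was at -0.45 ± 0.11 (adjusted p = 0.0901). These 3 genes sat near the threshold rather than clear of it. Leaving out ex vivo animal 1 brought all 3 past it, with adjusted p-values of 0.0381, 0.0196 and 0.0456 in the order named. Leaving out ex vivo animal 4 gave 0.0122, 0.0492 and 0.0223. In the other 9 runs that left out an animal, no member passed. Without ex vivo animal 3, Pfn1 was at 0.60 and Fermt2 at -0.35, and without ex vivo animal 2 Parva was at 0.42. With in vivo animals 1 to 3 or 4 to 7 alone beside the ex vivo animals, Pfn1 was at 0.70 and 0.65 and did not pass, with adjusted p-values of 0.462 and 0.405.

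The next members were turnover, crosslinking, plaque and assembly genes. Wdr1 was at 0.25 ± 0.08 (adjusted p = 0.16), Cfl1 at 0.19 ± 0.07 (adjusted p = 0.193), Flna at 0.26 ± 0.09 (adjusted p = 0.219), Zyx at 0.39 ± 0.14 (adjusted p = 0.226) and Arpc2 at 0.19 ± 0.08 (adjusted p = 0.283). For Cfl1, 6 of 7 animals were lower in vivo and 4 of 4 higher ex vivo, a pattern that 1.34% of all genes had. Parva shared it on the brighter probe only, its second probe being higher in 4 of 7 animals in vivo and 3 of 4 ex vivo. For Zyx, ex vivo animal 3 had 0.46 while the other ex vivo animals lay between 0.02 and 0.06.

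Levels of the same genes were then compared between the settings in shortened tissue, ex vivo minus in vivo. The animals differed between the settings and the median of all probes was lower ex vivo by a shift of -0.38, so differences are given relative to that shift. Setting, animals and array processing cannot be told apart. The comparison moved most of the transcriptome, with 68.9% of all genes passing the threshold (30.0% higher and 38.8% lower). Among the members 25 passed, 17 higher and 8 lower, with a median of 0.34 against -0.09 over all genes. The groups did not overlap for 15 members that were higher and 6 that were lower on the deposited scale less the shift, against 24.2% and 31.3% of all genes. On the deposited values without the shift the split was 9 higher to 14 lower with a median of -0.04, and over all genes the higher share of calls went from 43.6% to 20.4%. After quantile normalization over all 22 samples it was 16 higher to 9 lower.

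Over all 12393 genes, 3724 were called higher and 4811 lower relative to the shift. On the deposited values these counts were 1939 and 7572, and after quantile normalization 3838 and 4730. The share of all genes called the same way under all 3 scalings was not counted. Among the members, calls that kept their direction under these 3 scalings numbered 17. Higher ex vivo were Pfn1, Pfn2, Tmsb10, Cap1, Wdr1, Cttn, Actn1, Rock1 and Fermt2, and lower were Tmsb4x, Arpc2, Vcl, Pxn, Zyx, Ilk, Parva and Srf. In fits against in vivo animals 1 to 3 and 4 to 7 separately, all of these kept their call except Vcl against animals 1 to 3 (-0.41, adjusted p = 0.0752). Both fits reused the animals by which the 17 were picked, so they are not an independent repeat. Over all genes, 3811 were called higher and 4489 lower against animals 1 to 3, and 3833 and 5235 against animals 4 to 7. In stretched tissue the comparison of settings called 23 members, beside 3660 genes higher and 4536 lower over all genes. Of the 17 members named above, 15 passed there in the same direction, in partner samples of the same animals. The share of all genes that kept a call in these fits was not counted. Arpc2 (0.02, adjusted p = 0.846) and Ilk (-0.10, adjusted p = 0.422) did not pass there, and Parva and Fermt2 were smaller, at -0.33 and 0.33. For Actg1, Cfl1, Flna, Myh9 and Csrp1 the sign of the difference turned between scalings.

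By role, 7 of the 10 monomer and turnover genes rose and 1, Tmsb4x, fell relative to the shift, beside 30.0% of all genes higher and 38.8% lower. On the deposited values 5 rose, since Cfl2 (0.04, adjusted p = 0.66) did not pass and Cfl1 (-0.09) turned sign without passing. There Tmsb4x (-0.56, adjusted p = 3.43e-08) and also Actg1 (-0.36, adjusted p = 8.35e-05) fell, beside 1939 genes higher and 7572 lower over all genes. Pfn1 stood between 9.07 and 9.71 (median 9.42) in shortened tissue in vivo and between 10.08 and 10.67 ex vivo, with no overlap. Relative to the shift it rose by 1.24 ± 0.13 (SE, n = 7 and 4; adjusted p = 4.56e-06), and on the deposited values by 0.85. Pfn2 rose by 1.66 ± 0.15 (adjusted p = 7.68e-07), with medians of 9.48 in vivo and 10.92 ex vivo and no overlap. The 2 thymosins parted: Tmsb10 rose by 0.88 ± 0.04 (adjusted p = 3.67e-09), whereas Tmsb4x fell by 0.17. Actb was at 0.38 ± 0.19 (adjusted p = 0.0836), and in vivo it differed between animals 1 to 3 (13.82 to 13.88) and animals 4 to 7 (12.92 to 13.19), the sets with low and high Gapdh gaps. Against animals 4 to 7 alone the Actb difference was 0.70, and against animals 1 to 3 it was -0.04.

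**Figure D4:**
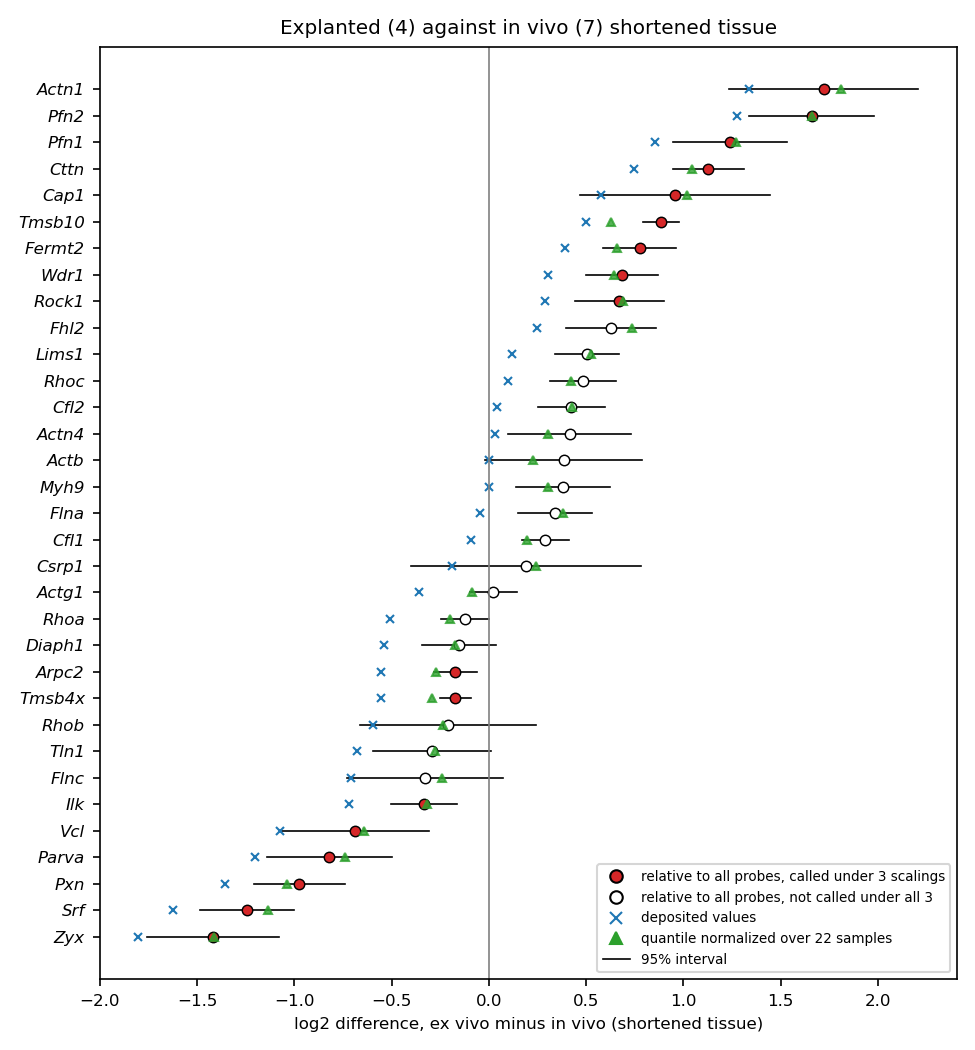
Log2 difference between shortened tissue ex vivo (4 animals) and in vivo (7 animals) for the 33 genes (rows, sorted), as circles relative to the median of all probes with 95% intervals, crosses on the deposited values and triangles after quantile normalization over 22 samples; filled circles mark the 17 genes called in the same direction under all 3. Profilins, Cttn and Actn1 lie to the right and Zyx, Srf, Pxn and Parva to the left, while the signs of Actg1, Cfl1, Flna, Myh9 and Csrp1 turn between scalings.

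Of the 4 adhesion plaque genes 3 fell and 0 rose, beside the same shares of all genes. Zyx stood between 11.15 and 12.10 in vivo and at 9.79, 9.80, 9.58 and 9.78 ex vivo, and fell by 1.42 ± 0.16 relative to the shift (adjusted p = 4.95e-06), whereas its dimmer second probe gave -0.17 and did not pass. Pxn read 10.56, 10.49, 10.78 and 10.61 ex vivo against 11.76 to 12.28 in vivo and fell by 0.97 ± 0.11 (adjusted p = 5.26e-06). Its second probe gave -1.38, and its dimmest probe 1.25 ± 0.65 (adjusted p = 0.108). In the ILK group Ilk and Parva fell while Lims1 and Fermt2 rose, Fermt2 by 0.78 ± 0.09 (adjusted p = 5.48e-06), from 11.15 to 11.47 in vivo to 11.47, 11.74, 11.90 and 11.65. Parva was contradicted by its second probe, which passed in the higher direction at 1.16 (adjusted p = 0.00855).

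Of the assembly and crosslinking genes, cortactin (Cttn), which stabilises branched networks, rose by 1.13 ± 0.08 (adjusted p = 1.47e-07), from 10.74 to 11.12 in vivo to 11.51, 11.66, 11.75 and 11.76 ex vivo. Actn1, Actn4 and Flna rose among the crosslinkers, Actn4 relative to the shift only and Flna also after quantile normalization, with a deposited sign that turned. Rock1 rose under all 3 scalings. Rhoc, Lims1, Fhl2 and Myh9, the non-muscle myosin heavy chain, rose relative to the shift but did not pass on the deposited values, where the sign of Myh9 turned. The 8 members that did not pass were Actb, Actg1, Diaph1, Flnc, Rhoa, Rhob, Tln1 and Csrp1. Srf read 6.98, 7.13, 6.69 and 7.08 ex vivo against 8.37 to 8.75 in vivo and fell by 1.24 ± 0.11 (adjusted p = 7.93e-07). Its second probe rose instead, by 0.61 (adjusted p = 0.0137), so the direction for Srf depended on the probe. Of 18 called members with further probes, 10 had every other probe on the same side, and in 5 (Cfl2, Myh9, Rock1, Parva and Srf) another probe passed in the opposite direction. These shares were not counted over all genes. The other 7 called members rested on a single probe. Of 10 macrophage markers 9 fell in this comparison, their mean running from 11.8 to 12.3 in vivo and from 8.57 to 9.53 ex vivo, and 11 of 13 fibroblast markers fell. Their part in the values was not tested.

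Other genes of the same machinery, listed by function, were measured for 83 of 106 names. In vivo 70 were lower and 13 higher, with a median of -0.08, and none passed; at an unadjusted p under 0.05, 26 were lower and 3 higher. Over all genes 55.2% were lower in vivo (59.3% of those with a mean signal of at least 6), and 12.7% were lower and 9.05% higher at that p. Rsu1, a partner of PINCH1, was lower in 7 of 7 animals at -0.13 ± 0.03 (adjusted p = 0.172), and Lima1, an actin-bundling LIM protein, in 7 of 7 at -0.23 ± 0.07 (adjusted p = 0.173). The Arp2/3 subunit Arpc5 was at -0.16 ± 0.05. Marker lists of several cell types lay on one side in vivo as well. Macrophage (10 of 10), fibroblast (13 of 13) and Schwann cell markers (5 of 5) had negative means, with list medians of -0.16, -0.08 and -0.35. Adipocyte (8 of 8), endothelial (8 of 9) and pericyte markers (6 of 7) had positive means, with list medians of 0.50, 0.38 and 0.33. No marker passed the threshold, and the part of these cell types in the gene values was not tested. Ex vivo 52 of the 83 other genes of the machinery were higher and 31 lower, with none past the threshold, and 52.4% of all genes were higher. At an unadjusted p under 0.05, 8 were higher and 7 lower, against 5.90% and 5.87% of all genes. The genes given next are from the lower side only. Tes, a LIM protein of focal adhesions, was at -0.63 ± 0.10 and Lims2, encoding PINCH2, at -0.58 ± 0.14. Wasl, an activator of Arp2/3, was at -0.39 ± 0.10 and the filament-capping Tmod3 at -0.25 ± 0.07.

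In the test between stretch differences, none of the 83 passed. The myosin light chain Myl12b was lower in 7 of 7 animals in vivo and higher in 4 of 4 ex vivo, a difference of 0.29 ± 0.07 (adjusted p = 0.101). Rac1 was at 0.25 ± 0.07 (adjusted p = 0.119). Between the settings 21 rose and 33 fell relative to the shift, and 11 rose and 57 fell on the deposited values. These splits stood beside 30.0% higher and 38.8% lower over all genes relative to the shift, and 1939 genes higher to 7572 lower on the deposited values. The LIM protein genes Csrp2 and Fhl1 fell by 2.79 ± 0.13 and 2.64 ± 0.10 and Pdlim5 by 1.07 ± 0.06.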

How the data were processed

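RNA of 22 tissue samples was labelled as biotin cRNA and measured on arrays. The deposited values are log2 signals that the authors made with RMA in affy, per the submitters' processing notes, which give no versions; RMA corrects background, normalizes and summarises probe sets. Array distributions differed between the settings. Of 22690 probes, 64 controls (Actb's brightest probe among them) were left out. Symbols came from the platform table and were updated by Entrez identifier to RefSeq (GRCm38.p6); 20380 probes had 1 symbol, 691 several and 1555 none. Probes with the suffixes _s_at and _x_at, such as those of Actg1, Cfl1 and Tmsb10, can bind transcripts of related genes.

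All 22626 remaining probes entered every fit, made in R 4.3.3 by lmFit and trended eBayes of limma 3.58.1, with Benjamini-Hochberg adjustment. The fits were tested on simulated data. Stretch comparisons used the animal as a block, as the design pairs samples within animals. Deviations of samples of 1 animal correlated at 0.385 to 0.867 in vivo and 0.109 to 0.284 ex vivo, and no columns were identical. The difference of stretch effects was fitted over 22 samples with 11 blocks. The setting comparison had no block. Replicates are animals, and the number of arrays limits the precision.

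Members, lists and tests were chosen with earlier results of these data known. In each stretch comparison the 12 members with the smallest p were to be named, with Actb, Cfl1, Cfl2, Flna, Flnc, Vcl and Srf, and 8 in each other comparison. Of other pathway genes the 5 with the smallest p were named per stretch comparison and 3 in the others; some are not reported here. Actn1, Tmsb4x and further members were named after their values were seen. Alternatives were other normalizations, filters, probe rules, weights, blocks, a muscle covariate and animals left out. Added after seeing the data were the setting comparison on deposited values, the in vivo animals 1 to 3 or 4 to 7 alone in the last 2 comparisons, and the Gapdh gap as a covariate in vivo, which brought no call.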

Additional observations from a re-analysis of the deposited data

Results flagged for a closer look

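For 66 sets of animal differences (33 genes in 2 settings), the most extreme animal was compared with the others by Dixon's gap ratio, and 5 stood apart, where chance flags about 1 in 20. In vivo, animal 1 had a stretched minus shortened log2 difference of -0.78 for Csrp1, a LIM protein that bundles actin, and of -0.68 for Fhl2, while the other 6 animals lay between -0.11 and 0.18 and between -0.11 and 0.15. Animal 7 had 0.36 for the crosslinker Actn4, with the other animals between -0.18 and 0.01. Ex vivo, animal 3 had 0.46 for Zyx, with the others between 0.02 and 0.06, and animal 1 had -0.23 for Fhl2, with the others between 0.22 and 0.30.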

How the results depend on the processing

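No member and no probe passed in either stretch comparison under any alternative run. Signs turned for members near 0. In vivo Actb was 0.11 with the mean of all probes, 0.00050 with the muscle covariate and 0.025 without the muscle-rich pairs, and with that covariate Pfn2 was -0.012 and Flnc -0.022. Ex vivo Srf was -0.0085 with quantile normalization, -0.0044 with median centring, -0.016 with array weights and -0.010 without the muscle-rich pairs. Leaving out animals gave in vivo Actb -0.11 to 0.0047, ex vivo Srf -0.085 to 0.12 and Vcl -0.22 to 0.0080, member medians of -0.05 to -0.03 in vivo and 0.07 to 0.11 ex vivo.

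The test between stretch differences called 40 probes; it called 5 with quantile normalization within the fit or over all samples, 74 with probes of mean at least 6, 4 without trend, 330 with array weights, 11 with the muscle covariate, 9 without the muscle-rich pairs, 3 with no replicate block, 1 with in vivo animals 1 to 3 and 0 with animals 4 to 7. Leaving out an animal gave 0 (in vivo animal 2) to 663 (ex vivo animal 1). Members called were 0, against 1 with the mean filter (Pfn1), 3 with array weights and 1 with 1 probe per gene (Pfn1), and 0 to 3 on leaving out an animal. The pairing changed no other call.

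Between settings, the member median of 0.34 was 0.24 with either quantile normalization, 0.43 with 1 probe per gene, -0.043 on deposited values and 0.21 against in vivo animals 1 to 3. Calls numbered 15235 probes, against 8640 with 1 probe per gene and 8472 with the mean of all probes, where fewer features were tested. With that mean Pxn was at -0.33 (adjusted p = 0.265). Leaving out animals gave 14222 to 15490 probes, 24 to 27 members and medians of 0.29 to 0.36. Causes were not tested.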
